A study of Mus musculus with 2 samples.

Results

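The cytokines of the IL-12 family and their receptor chains were followed in immune cells of the mouse liver. The group was set by name as 8 genes, namely the cytokine subunits Il12a, Il12b, Il23a, Ebi3 and Il27 and the receptor chains Il12rb1, Il12rb2 and Il23r. All 8 were among the 24131 genes of the series and among the 20559 genes counted in both deposited libraries.

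Each cytokine of this family is made of a pair of subunits, and some subunits are shared between its members. The p35 chain from Il12a joins the p40 chain from Il12b to form IL-12, p40 joins p19 from Il23a to form IL-23, and EBI3 joins p28 from Il27 to form IL-27 or p35 to form IL-35. Dendritic cells and macrophages are the classical sources. On the receiving cell the chain encoded by Il12rb1 binds p40 and is common to both receptors, while Il12rb2 completes the receptor for IL-12 and Il23r the receptor for IL-23. IL-12 acts through TYK2, JAK2 and STAT4 on NK and T cells and favours IFN-γ, whereas IL-23 sustains cells that make IL-17.

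CD45+ cells were isolated from liver and their transcripts were read on the BD Rhapsody platform in 2 libraries, each a pool of 2 genotypes. The first pooled TG mice with IFN-γ ARE-Del-/- mice. In TG mice the mouse CD4 promoter drives dnTGFβRII, a human TGF-β receptor II made dominant negative. IFN-γ ARE-Del-/- mice lack an AU-rich element of the Ifng transcript. The second pooled WT mice (C57BL/6) with P40-/-IL-2Ra-/- mice, which lack p40 and the IL-2 receptor α chain. The labels give an age of 10 weeks and the strain C57BL/6 for both, while the methods of the study state that animals were younger. A genotype was named by the authors for 4647 cells of the first library (TG) and 7282 of the second (WT), with 14 cell type names over 30 clusters. The other 5379 and 16829 cells have no genotype name. They are called unnamed here, they can hold both genotypes of their pool, and they stood for no genotype.

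The level of a gene is given as CPM, its unique molecular identifiers (UMIs, each counting 1 captured RNA molecule) per 1000000 RNA UMIs of the same cells. Summed depth was 18517911 UMIs in TG cells, 22235398 in WT cells, 23221960 in unnamed cells of the first library and 64777997 in those of the second. Median depth per cell lay between 2656 UMIs in WT cells and 3368 in unnamed cells of the first library. With 1 library per genotype no test was possible, and genotype cannot be told apart from library in any difference between TG and WT cells. Ranges in parentheses are 95% intervals (exact Poisson for CPM, Clopper-Pearson for shares, exact conditional binomial for log2 ratios, Newcombe for differences of shares). A limit given for a count of 0 is the level or share that 3 counts would give. Intervals and limits cover counting error only, and intervals are too narrow for genes whose UMIs sit in a few cells. The cell type names come from the same transcripts and from surface proteins, so levels by type are a description.

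Each list of marker genes was higher in the cells of its own name than in all other named cells, with 1 exception, the monocyte list (Ly6c2, Ccr2, Chil3, Plac8, F13a1), which summed to 685 CPM in the cells named monocytes and to 1636 CPM in the other named cells. Of the 462 cells named monocytes, 331 held at least 3 UMIs of general myeloid genes with fewer than 2 UMIs each of T and of B cell genes. Of the 1374 cells named NK, 782 held at least 2 UMIs of T cell genes with fewer than 2 of B cell genes. Values by type for NK cells are those of all cells of that name.

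In all named cells together, Il27 was higher and Il12b and Il23r were lower in TG than in WT cells. They rest on few molecules, with 49 and 21 UMIs of Il27, 16 and 86 of Il12b and 5 and 54 of Il23r in TG and WT cells. At least 2-fold differences between TG and WT cells were seen for 3 of 8 members, 1 higher and 2 lower in TG cells, where 10.2% of 13234 genes with at least 20 UMIs over both were at least 2-fold apart (5.67% higher, 4.54% lower). The median log2 ratio of the members was -0.07 and that of all genes -0.02. Il12rb1 read 21.3 CPM in TG cells against 22.3 CPM in WT cells, Il12rb2 45.6 against 46.1 CPM, and Il12a 6.05 against 6.34 CPM. Il12rb2, with a log2 ratio of -0.02 (-0.15 to 0.12), had different shares of its UMIs in the cell types of each genotype.

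Il12rb1 and Il12rb2 shared NK, NKT and CD8αα T cells among their higher types, while Il23r lay in γδ T cells. Il12rb2 was highest in NK, NKT and CD8αα T cells. In WT mice it reached 126 CPM (109 to 144) in NK cells, 93.2 CPM (86.0 to 101) in NKT cells and 90.8 CPM (67.4 to 120) in CD8αα T cells. NKT and CD8αα T cells did not differ beyond their intervals, and NK cells lay above NKT cells. In TG mice the same cell types read 106 CPM (93.4 to 121), 93.95 CPM (80.2 to 109) and 96.6 CPM (80.6 to 115), and their intervals overlapped. At least 1 UMI was found in 25.0% of NK cells of either genotype, in 22.0% of WT and 26.0% of TG NKT cells, and in 20.6% and 24.6% of CD8αα T cells.

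Conventional WT T cells held little Il12rb2, with 13.04 CPM in CD8αβ T cells (40 UMIs in 819 cells) and 5.13 CPM in CD4 T cells (10 UMIs in 734 cells). γδ T cells held 1 UMI in 192 WT cells and none in 17 TG cells, which allows up to 48.1 CPM in the latter. Plasmacytoid dendritic cells (pDCs) stood between these groups at 29.5 CPM (20.04 to 41.9) in WT and 46.2 CPM (24.6 to 79.0) in TG mice, and macrophages at 25.7 CPM (17.99 to 35.6) and 14.7 CPM (6.71 to 27.9). Neutrophils had no UMI in 54 TG and 17 WT cells, which allows up to 8.90 CPM in the former. The limit is higher in the WT cells, which held few RNA UMIs (0.414% of those of WT cells), and their count of 0 says little.

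Mature B cells, taken as the background for a T and NK cell gene, were near 0. Their main cluster read 0.353 CPM of Il12rb2 in WT cells (1 UMI in 1329 cells) and 0.637 CPM in TG cells (2 UMIs in 1028 cells). A second mature B cluster of 184 cells read 31.5 CPM in WT and 27.6 CPM in TG cells, and 91.3% of its cells held both B and T cell transcripts, against 7.30% in the main cluster. Those cells carried 23 of the 24 Il12rb2 UMIs of WT mature B cells.

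Il12rb1, the shared chain, had a wider reach. Its highest level in WT mice was in γδ T cells, 58.3 CPM (39.6 to 82.8), followed by CD8αα T cells at 43.6 CPM (27.9 to 64.9), NKT cells at 40.6 CPM (35.8 to 45.7) and NK cells at 33.0 CPM (24.7 to 43.1). Each of these neighbours overlapped in its interval. CD8αβ T cells at 18.9 CPM (14.4 to 24.4) and CD4 T cells at 13.3 CPM (8.72 to 19.6) lay below them. In TG mice NKT cells read 50.4 CPM (40.5 to 62.0), CD8αα T cells 47.5 CPM (36.5 to 60.8), CD4 T cells 42.6 CPM (29.8 to 58.9), NK cells 29.3 CPM (22.7 to 37.3) and CD8αβ T cells 18.8 CPM (15.3 to 22.9). TG γδ T cells held 3 UMIs of Il12rb1, with 0.337% of the RNA UMIs of TG cells, too few to place among these. Mature B cells stood at 4.17 CPM in WT and 4.46 CPM in TG mice.

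Il23r was held by γδ T cells. They carried 45 of 54 UMIs in WT mice (83.3%, 70.7 to 92.1) while making up 2.64% of WT cells, and all 5 UMIs in TG mice. The level was 84.6 CPM (61.7 to 113) in 192 WT and 80.2 CPM (26.0 to 187) in 17 TG γδ T cells, so the genotypes did not differ beyond counting error within this cell type (log2 ratio -0.08, -1.77 to 1.25). Over all named cells Il23r read 0.270 CPM in TG and 2.43 CPM in WT, a log2 ratio of -3.17 (-4.85 to -1.86), and the share of γδ T cells was 0.366% and 2.64%. With the mix of cell types held equal the log2 ratio was -0.58. No UMI of Il23r was seen in 2232 WT NKT cells, which allows up to 0.454 CPM.

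**Figure D1:**
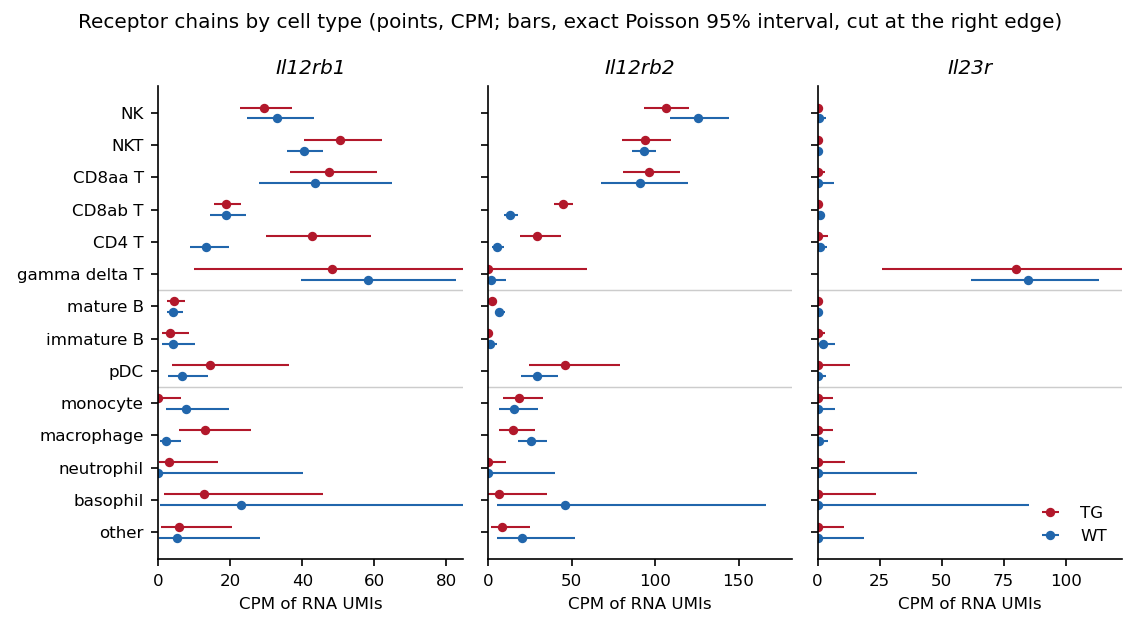
CPM of the 3 receptor chains (x axis) by deposited cell type (y axis) in TG (red) and WT (blue) cells, with exact Poisson 95% intervals as bars. Il12rb2 stands near 100 CPM in NK, NKT and CD8aa T cells of both genotypes, and Il23r near 80 CPM in gamma delta T cells and close to 0 elsewhere.

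Il12rb2 and Il23r, so unlike in their cells, are neighbours on chromosome 6 (GRCm38, minus strand), at chr6:67291318-67376188 and chr6:67422932-67491855 with 46.7 kb between them. Il12rb1 lies at chr8:70808449-70821424 on the plus strand. The 250 bases before each start (RefSeq, GRCm38.p6) are shown for the neighbouring pair because one chain stood highest in NK, NKT and CD8αα T cells and the other in γδ T cells. Il12rb2 lies at chr6:67376189-67376438 and Il23r at chr6:67491856-67492105, both read 5′ to 3′ along the gene, and capitals mark a match to TTCNNNGAA, the GAS element bound by STAT factors:
Il12rb2: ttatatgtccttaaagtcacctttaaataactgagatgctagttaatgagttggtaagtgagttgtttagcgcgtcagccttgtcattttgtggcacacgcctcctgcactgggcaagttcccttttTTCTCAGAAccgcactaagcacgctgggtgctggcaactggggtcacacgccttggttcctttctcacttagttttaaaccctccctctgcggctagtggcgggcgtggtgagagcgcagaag
Il23r: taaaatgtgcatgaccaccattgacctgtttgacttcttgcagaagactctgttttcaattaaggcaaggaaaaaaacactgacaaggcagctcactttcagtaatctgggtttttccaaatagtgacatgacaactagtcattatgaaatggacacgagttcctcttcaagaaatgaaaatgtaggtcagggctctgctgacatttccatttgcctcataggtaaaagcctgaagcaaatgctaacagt

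The match in Il12rb2 began 123 bases before the start on the gene's strand, and 7.02% of 32851 promoter windows of this length held such a match on either strand. The T-box letters AGGTGT (11.8% of windows), the interferon-stimulated response element (2.98%) and TATAAA (12.4%) were searched on both strands too and were in neither window. GC content was 50% for Il12rb2 and 39.6% for Il23r. These matches are letters in a window and not measured binding.

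The genotypes differed beyond counting error in conventional T cells. In CD8αβ T cells Il12rb2 read 44.8 CPM (39.3 to 50.9) in TG mice, from 238 UMIs in 163 of 1020 cells, and 13.04 CPM (9.32 to 17.8) in WT mice, from 40 UMIs in 33 of 819 cells. The log2 ratio was 1.78 (1.29 to 2.30). Of the 3 members with at least 20 UMIs in these cells 1 was at least 2-fold higher in TG mice, where 4.15% of 10317 genes were. The shared chain Il12rb1 read 18.8 and 18.9 CPM in the same cells, a log2 ratio of 0.00 with an interval of -0.49 to 0.49. TG CD8αβ T cells were deeper (median 4560 against 2997 UMIs per cell), and with each cell thinned to 1000 UMIs the share with Il12rb2 was 4.27% in TG and 1.08% in WT mice.

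CD4 T cells showed the same direction for both chains of the IL-12 receptor. Il12rb2 read 29.6 CPM (19.1 to 43.6) from 25 UMIs in 238 TG cells and 5.13 CPM (2.46 to 9.44) from 10 UMIs in 734 WT cells, a log2 ratio of 2.53 (1.42 to 3.75). Il12rb1 read 42.6 CPM (29.8 to 58.9) and 13.3 CPM (8.72 to 19.6), a log2 ratio of 1.67 (0.91 to 2.46). Ebi3 was the third member with enough molecules there, at 17.7 CPM (15 UMIs) in TG and 6.67 CPM (13 UMIs) in WT mice. All 3 were at least 2-fold higher in TG cells, where 5.41% of 8537 genes were. For Il12rb1 that call was lost with the mix of clusters held equal (log2 ratio 0.85). Without the 19 TG and 13 WT cells that held both B and T transcripts, the log2 ratio was 2.68 for Il12rb2, 1.63 for Il12rb1 and 0.95 (-0.40 to 2.26) for Ebi3, which then was less than 2-fold apart.

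NK, NKT and CD8αα T cells gave log2 ratios of Il12rb2 between TG and WT of -0.24 (-0.52 to 0.04), 0.01 (-0.24 to 0.26) and 0.09 (-0.39 to 0.59). None of these intervals reached a 2-fold difference. The NK value is for the cells of that name, many of which held T cell transcripts. Cells of any name in the NK gate described below, which excludes cells with T transcripts, numbered 78 TG and 370 WT. Of the cells named NK, 433 lay in that gate, so at most 78 of these were TG cells and most were WT cells. The cells named NK thus differed in makeup between the genotypes, with a smaller part of them in that gate in TG mice. The NKT-named cells held 60.1% of all Il12rb2 UMIs of named WT cells and 19.7% of those of TG cells, and were 30.7% and 9.60% of the cells. CD8αβ T cells held 3.90% and 28.2% of the UMIs and were 11.2% and 21.9% of the cells.

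The clusters within a name differed in Il12rb2. CD8αβ T cells of cluster 12, which held Klrg1 at 696 CPM and Gzmb at 972 CPM, read 87.1 CPM of Il12rb2 in 249 TG cells (64 UMIs) and 13.6 CPM in 73 WT cells (3 UMIs), a log2 ratio of 2.67 (1.06 to 4.99). Cluster 7, which held the proliferation gene Mki67 at 1101 CPM, read 50.8 CPM (123 UMIs) and 23.4 CPM (22 UMIs), a log2 ratio of 1.12 (0.45 to 1.84). Cluster 18 read 87.4 CPM (36 UMIs) and 33.7 CPM (3 UMIs), with an interval of the log2 ratio of -0.28 to 3.72.

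Clusters 4 and 13 of CD8αβ T cells, with Tcf7, a factor of naive and memory T cells, at 868.5 CPM and 656 CPM, held little of the chain in either genotype. Cluster 4 read 4.15 CPM in TG cells (3 UMIs) and had no UMI in 363 WT cells. Cluster 13 read 9.28 CPM in TG and 14.5 CPM in WT cells. With the mix of the 6 CD8αβ clusters held equal the log2 ratio of Il12rb2 was 1.33.

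Among CD4 T cells cluster 9, with Tcf7 at 626 CPM, held the largest part of both chains. It read 39.9 CPM of Il12rb1 in TG (19 of 36 UMIs) and 20.2 CPM in WT cells (15 of 26 UMIs), a log2 ratio of 0.99 (-0.07 to 2.07). Cluster 21, with the regulatory T cell gene Foxp3 at 937.5 CPM, read 87.1 CPM of Il12rb1 in TG (17 UMIs) and 53.7 CPM in WT cells (11 UMIs), and its Il12rb2 amounted to 2 UMIs in TG and none in WT cells. Cluster 6, with Tcf7 at 1147 CPM, had no UMI of Il12rb1 in 58 TG and 397 WT cells. In cluster 9 Il12rb2 was at 39.9 CPM in TG (19 of 25 UMIs) and 9.41 CPM in WT cells (7 of 10 UMIs), a log2 ratio of 2.08 (0.77 to 3.58). With the cluster mix held equal the CD4 log2 ratios were 2.38 for Il12rb2 and 0.85 for Il12rb1, both smaller than without that step, and Il12rb1 was then less than 2-fold apart. Within cluster 21 its log2 ratio was 0.70 (-0.48 to 1.94).

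**Figure D2:**
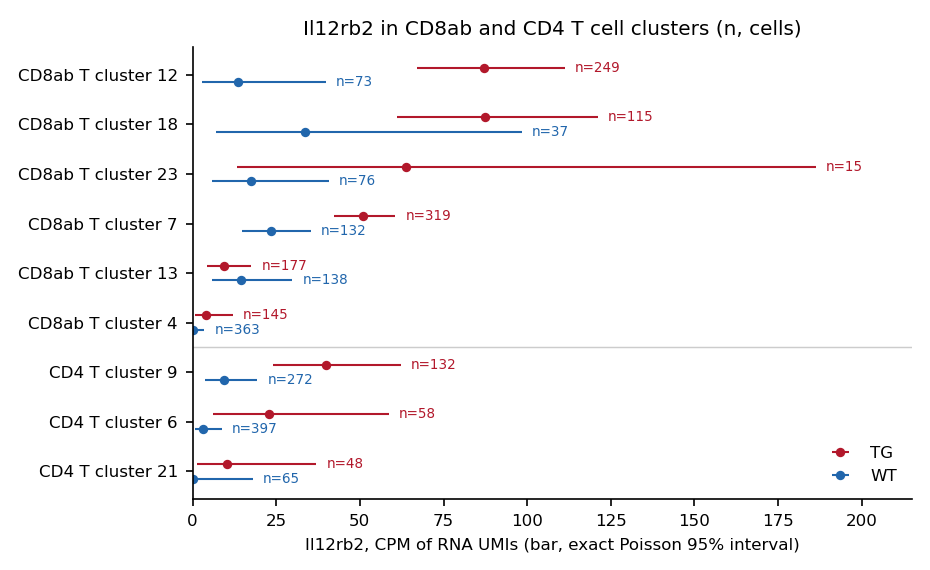
CPM of Il12rb2 (x axis) by cluster of CD8ab and CD4 T cells (y axis) in TG (red) and WT (blue) cells, with exact Poisson 95% intervals as bars and the number of cells beside each. Cluster 12 shows 87.1 CPM in TG and 13.6 CPM in WT cells, while clusters 4 and 13 stay under 15 CPM in both.

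Genes of the same pathway were read in the same cells from a list of 21. In CD8αβ T cells 15 had at least 20 UMIs over both genotypes, and 3 of these were at least 2-fold higher and 1 at least 2-fold lower in TG mice, beside 7.24% of all genes in either direction. The higher ones were Tbx21, which encodes the T-bet factor of type 1 responses (209 and 60.6 CPM, log2 ratio 1.78, 1.56 to 2.01), Il18rap, a chain of the IL-18 receptor (129 and 41.4 CPM, 1.64, 1.37 to 1.93), and Cd40, a gene also of B cells (20 and 1 UMIs). Cells with both B and T transcripts were 117 of 1020 TG (11.5%) and 17 of 819 WT (2.08%) CD8αβ T cells. Without them Cd40 had 12 and 1 UMIs, too few for a call, and the log2 ratio of Il12rb2 was 1.80 (1.31 to 2.32). The lower one was Il6st, which encodes gp130, a chain of the IL-27 receptor (18.8 and 49.9 CPM, -1.40, -1.78 to -1.03). Stat4, the factor activated by IL-12, read 131 and 111 CPM (0.24, 0.06 to 0.44), and Ifng 142 and 103 CPM (0.47, 0.28 to 0.67).

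In CD4 T cells 16 genes of that list had enough molecules, and 3 were at least 2-fold higher and 2 at least 2-fold lower in TG mice, beside 8.69% of all genes. Tbx21 read 88.7 and 34.4 CPM (log2 ratio 1.37, 0.87 to 1.86), Il18rap 82.8 and 33.9 CPM (1.29, 0.78 to 1.80) and Ifng 155 and 71.9 CPM (1.11, 0.75 to 1.46). Among the lower ones was the type 17 cytokine Il17a, with 1 and 27 UMIs. Over all named cells 3 of the 21 genes were at least 2-fold apart, all lower in TG mice, beside 4.54% of all genes lower. They included Il17a (log2 ratio -3.29) and Il22 (-3.98, from 1 and 19 UMIs), and γδ T cells held 171 of 211 Il17a UMIs of WT mice.

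Whether both receptor chains were caught in the same cell was read next. Of WT NKT cells with a UMI of Il12rb1, 20% (48 of 240) also held Il12rb2, and of those without it 22.3% (444 of 1992), a difference of -2.29 points (-7.23 to 3.504). In TG CD8αβ T cells the shares were 28.6% (24 of 84) and 14.9% (139 of 936), a difference of 13.7 points (4.83 to 24.4). Cells with Il12rb1 were deeper there, with a median of 6320 against 4422 UMIs, and with each cell thinned to 1000 UMIs, which lowers both shares, they were 6.94% and 4.22%. The thinned share of 6.94% rests on a mean of 1.23 of 17.7 cells. Without thinning, shares of WT CD8αβ T cells were 3.92% (2 of 51) and 4.04% (31 of 768). Their difference was -0.115 points (-3.39 to 9.25), an interval that overlapped that of TG cells. At this depth the absence of a chain from a single cell says little.

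The cytokine subunits came from other cells. Il12a was highest in mature B cells and WT pDCs. Mature B cells held 90.2% (83.1 to 94.99) of its UMIs in TG and 61.7% (53.1 to 69.8) in WT mice, at 30.04 CPM (24.5 to 36.5) and 24.2 CPM (19.4 to 29.8), a log2 ratio of 0.31 (-0.12 to 0.74). At least 1 UMI was seen in 6.84% of TG and 5.35% of WT mature B cells. WT pDCs reached 34.2 CPM (24.0 to 47.4), with 36 UMIs in 30 of 219 cells, and did not differ from WT mature B cells beyond the intervals.

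TG pDCs held 1 UMI of Il12a in 46 cells, 3.56 CPM (0.0900 to 19.8), a log2 ratio to WT pDCs of -3.27 (-8.61 to -0.70). Immature B cells held 3 UMIs in TG and 11 in WT mice. No UMI was found in 759 TG and 615 WT NK cells or in 446 TG and 2232 WT NKT cells, for which the limits run from 0.454 CPM in WT NKT cells to 1.87 CPM in WT NK cells.

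Il23a lay in the cells named monocytes, which carried 69.7% of its UMIs in TG and 66.2% in WT mice while making up 4.39% and 3.54% of the cells. Their level was 38.4 CPM (24.3 to 57.6) from 23 UMIs in TG and 86.0 CPM (62.7 to 115) from 45 UMIs in WT mice, a log2 ratio of -1.16 (-1.96 to -0.41). In these cells 10.7% of 5037 genes were at least 2-fold apart in either direction, and WT cells were shallower (median 1772 against 2619 UMIs). With thinning to 1000 UMIs the share with Il23a was 3.97% in TG and 7.84% in WT monocytes. WT macrophages read 5.71 CPM (8 UMIs), and 109 TG macrophages had none, which allows up to 4.89 CPM. CD8αβ T cells, as background, read 0.188 CPM in TG and 0.652 CPM in WT mice.

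Ebi3, the subunit shared by IL-27 and IL-35, was highest in myeloid cells. Neutrophils read 119 CPM in both genotypes (40 UMIs in 54 TG cells and 11 UMIs in 17 WT cells), monocytes 90.1 CPM (67.7 to 118) in TG and 76.4 CPM (54.6 to 104) in WT mice, and macrophages 48.9 CPM (33.0 to 69.9) and 47.1 CPM (36.4 to 59.9). None of these pairs differed beyond counting error. Immature B cells read 17.99 CPM (11.3 to 27.2) in TG and 35.4 CPM (24.8 to 49.0) in WT mice, a log2 ratio of -0.98 (-1.81 to -0.17). NK cells gave the low end with 6 UMIs in 759 TG cells and none in 615 WT cells.

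Within CD4 T cells Ebi3 sat mainly in the Foxp3-high cluster 21, with 14 of 15 UMIs in TG and 9 of 13 in WT mice. It read 71.7 CPM in 48 TG and 44.0 CPM in 65 WT cells of that cluster, a log2 ratio of 0.71 (-0.60 to 2.10). Cluster 21 made up 48 of 238 TG and 65 of 734 WT CD4 T cells.

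Il27 was low and myeloid. Macrophages read 22.8 CPM (12.5 to 38.3) from 14 UMIs in TG and 11.4 CPM (6.52 to 18.5) from 16 UMIs in WT mice, a log2 ratio of 1.00 (-0.15 to 2.13). Neutrophils, whose level over both genotypes was the highest, held 13 UMIs in TG and 1 in WT mice. They made up 1.82% of the RNA UMIs of TG and 0.414% of those of WT cells, so these counts are not levels. Monocytes held 9 and 1 UMIs, with 3.24% and 2.35% of the RNA UMIs. Over all named cells the level was 2.65 CPM (49 UMIs) in TG and 0.944 CPM (21 UMIs) in WT mice, a log2 ratio of 1.49 (0.72 to 2.30), and Il27 was the member at least 2-fold higher in TG cells. TG NK cells held 6 UMIs in 759 cells, 2.63 CPM (0.964 to 5.72), and WT NK cells none in 615.

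**Figure D3:**
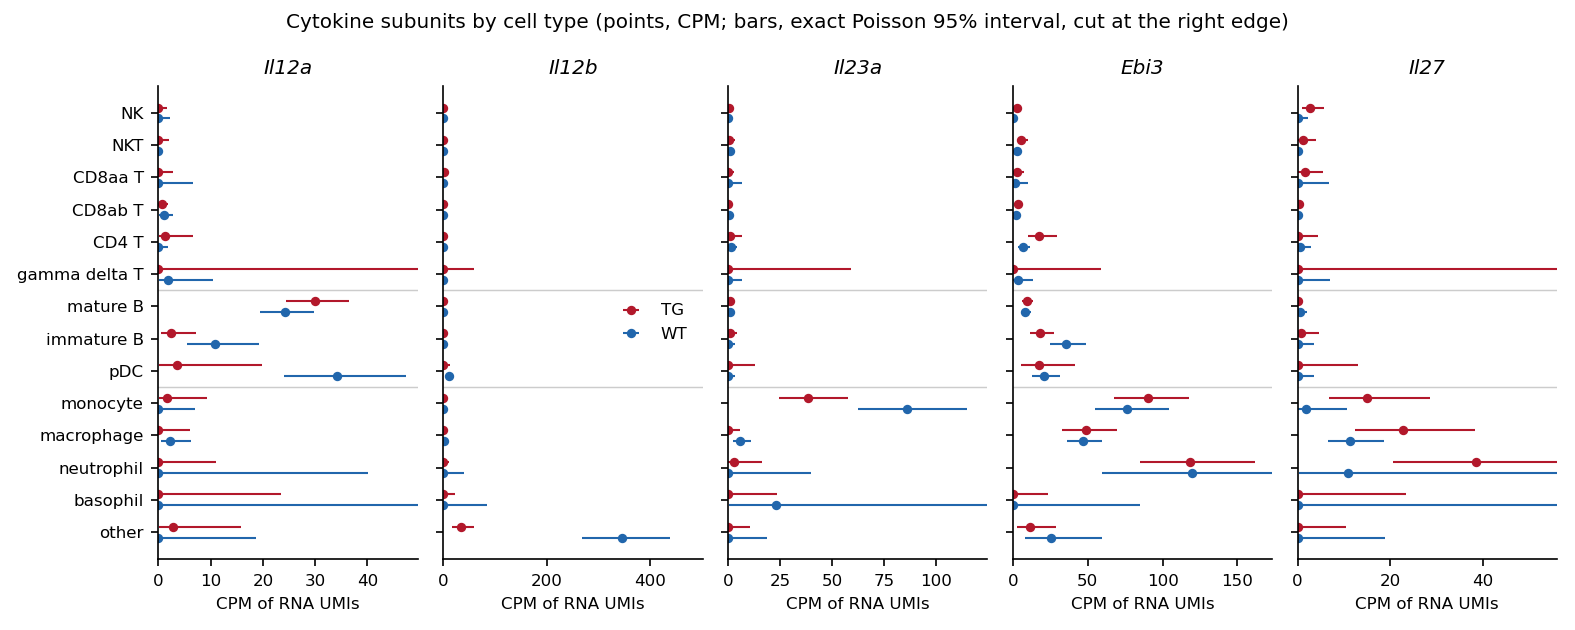
CPM of the 5 cytokine subunits (x axis, a scale for each gene) by deposited cell type (y axis) in TG (red) and WT (blue) cells, with exact Poisson 95% intervals as bars, cut at the right edge. Il12a stands out in mature B cells and WT pDCs, Il23a in monocytes, Ebi3 and Il27 in neutrophils, monocytes and macrophages, and Il12b in the small class named other.

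Il12b lay in very few cells with many molecules each. In TG mice 12 of its 16 UMIs came from 1 cell, and in WT mice 79 of 86 UMIs came from 5 cells with 4, 4, 11, 21 and 39 UMIs. The WT cell with 11 UMIs is named pDC. The TG cell and the other 4 WT cells belong to cluster 28 of the class named other, which numbers 6 TG and 15 WT cells. That cluster is led by H2-M2, Sod3, Apol7c, Fscn1, Clu, Ccl22 and Il12b itself, and all 7 markers of mature dendritic cells were found in it (Ccr7 and Fscn1 in 20 of 21 cells each). Il12b was among the genes that set the cluster apart, so its level there describes the cluster. Of 9 macrophage genes, 6 (among them Adgre1, Clec4f and Vsig4) were at 0 in it, which allows up to 21.6 CPM. Csf1r was found in 2 of the 21 cells (50.3 CPM) and Timd4 and C1qa in 1 each.

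Cells with 3 or more UMIs of Il12b were few in all 4 sets. There was 1 among 4647 TG cells, 5 among 7282 WT cells, 20 among 5379 unnamed cells of the first library and 2 among 16829 unnamed cells of the second. Every one of these cells held at least 20 UMIs of the 7 mature dendritic cell markers, and the cell with 21 UMIs of Il12b in the second unnamed set held 22, close to that limit. The 20 unnamed cells of the first library carried 427 UMIs, from 3 to 99 a cell with a median of 7.5. By the transcript gates described below, 9 of these 20 cells were myeloid, 4 fell in the T gate and 7 in more than 1 gate. The high TG cell also fell in more than 1 gate, and doublets were not removed. Cells in more than 1 gate held 49.1% of all Il12b UMIs of the first library's unnamed cells, and the T gate 31.5%.

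Over all cells Il12b read 0.864 CPM in TG cells, 18.9 CPM in unnamed cells of the first library, 3.87 CPM in WT cells and 2.59 CPM in unnamed cells of the second. Cells with at least 20 UMIs of the mature dendritic markers numbered 5 TG, 18 WT, 32 first-library unnamed and 9 second-library unnamed cells, and 1, 5, 23 and 2 of them held Il12b. The share was 71.9% (53.3 to 86.3) in the unnamed cells of the first library, 27.8% (9.69 to 53.5) in WT cells, 22.2% (2.81 to 60.0) in the unnamed cells of the second library and 20% (0.505 to 71.6) in TG cells.

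The second library pools WT mice with mice that lack p40, and its unnamed cells held Il12b in another pattern. Of their 168 UMIs, 143 lay in 138 cells with 1 or 2 UMIs, and 133 of those cells had exactly 1. Such low cells numbered 7 among WT cells of the same library, 4 among TG cells and 9 among unnamed cells of the first. Their molecules amounted to 2.21 CPM (1.86 to 2.60) in unnamed cells of the second library, 0.315 CPM (0.126 to 0.649) in WT cells, 0.216 CPM in TG cells and 0.474 CPM in unnamed cells of the first.

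The low cells were spread over lineages. Sorting all cells by transcripts into T cells (at least 2 UMIs of Cd3d, Cd3e, Cd3g and Trac together), B cells (at least 2 of a B cell list that includes Cd79a, Cd79b and Ms4a1), NK cells (at least 2 of Ncr1, Klrb1c and Klre1 with fewer than 2 T transcripts) and myeloid cells (at least 3 of Lyz2, Csf1r, Cd68, Adgre1, Itgam and Cst3 with fewer than 2 T transcripts) placed 100 of the 138 in the T gate, 9 in the B gate, 3 in the NK gate and 16 in the myeloid gate. A further 10 fell in more than 1 gate. The low cells were 0.772% (0.628 to 0.938) of the T gate, 0.947% (0.434 to 1.79) of the B gate and 1.02% (0.587 to 1.66) of the myeloid gate of unnamed cells of the second library. In WT cells, from the same capture, they were 0.0923% (0.0251 to 0.236) of the T gate, at a median depth of 2787 UMIs against 3068. No WT cell of the B gate held Il12b, which allows up to 0.224%. In the WT myeloid gate low cells were 2 of 584 (0.342%, 0.0415 to 1.23), an interval that overlapped that of the unnamed cells.

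Which part of Il12b is deleted in P40-/- mice and which part was read are not given in the sources used here, and no genotype was assigned to the cells. The source of the single UMIs was not tested. Il2ra, whose product the same mice lack, read 8.32 CPM in the T gate of unnamed cells of the second library and 91.1 CPM in that of WT cells. These T gates differed in makeup, as given below, and the cause of the Il2ra difference was not tested. In the NK gate Il2ra read 8.86 CPM (2.41 to 22.7) and 13.3 CPM (6.86 to 23.2), with overlapping intervals. The T gate of the first library read 54.6 CPM in unnamed and 39.3 CPM in TG cells.

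**Figure D4:**
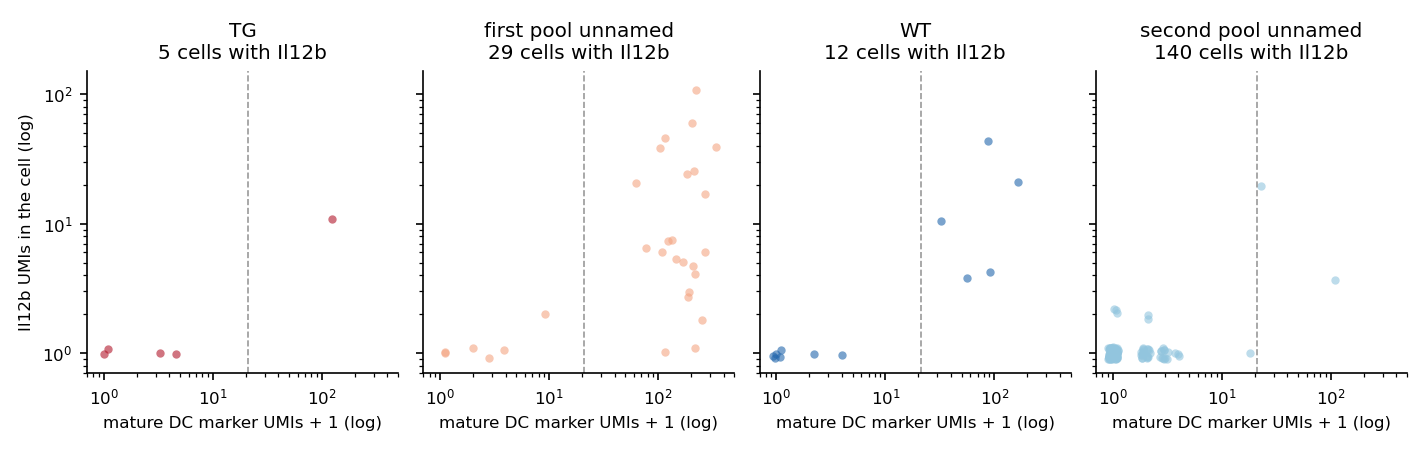
Each point is a cell with Il12b, with the summed UMIs of 7 mature dendritic cell markers plus 1 on the x axis and its Il12b UMIs on the y axis, both on log scales with small random offsets, in the 4 cell sets; the dashed line marks 20 marker UMIs. The unnamed cells of the second library show 133 cells at 1 UMI, all left of the line, and those of the first show 20 cells with 3 to 99 UMIs to its right.

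Unnamed cells were compared with the named cells of their own library, which share capture and sequencing. In the first library 3 of 8 members were at least 2-fold higher in unnamed cells and none lower, beside 6.2% of 13342 genes in either direction. They were Il12b (log2 ratio 4.45, 3.73 to 5.27), Il23r (2.97 against 0.270 CPM, 3.46, 2.17 to 5.13) and Il27 (8.27 against 2.65 CPM, 1.64, 1.18 to 2.13). Ebi3 followed with 25.1 against 12.9 CPM (0.96, 0.74 to 1.18), and Il12rb2 was lower with 30.5 against 45.6 CPM (-0.58, -0.72 to -0.43).

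The Il23r molecules of these unnamed cells lay in the T gate, 55 of 69 UMIs, at 4.83 CPM (3.64 to 6.28) against 0.297 CPM in TG cells. The γδ gene Trdc read 81.9 CPM there and 79.7 CPM in TG cells. Il17a read 7.37 against 1.49 CPM (log2 ratio 2.31, 1.51 to 3.21) in the same gate, so Il23r and Il17a were both higher there.

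In the second library 3 of 8 members were at least 2-fold apart, with Il27 higher (2.44 against 0.944 CPM, log2 ratio 1.37, 0.71 to 2.10) and Il12rb2 and Il23r lower in unnamed cells, beside 14.4% of 14402 genes (7.32% higher, 7.1% lower). Il12rb2 read 6.75 CPM (437 UMIs) in unnamed and 46.1 CPM (1025 UMIs) in WT cells, a log2 ratio of -2.77 (-2.94 to -2.61). Il23r read 0.293 and 2.43 CPM (-3.05, -3.89 to -2.27). The shared chain Il12rb1 did not differ beyond counting error (22.7 and 22.3 CPM, 0.03, -0.12 to 0.18).

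Il12rb2 was lower in unnamed cells of the T, mixed and myeloid gates of this library. In the T gate the level was 5.90 CPM (5.25 to 6.62) in 12959 unnamed cells and 59.9 CPM (55.8 to 64.2) in 4335 WT cells, a log2 ratio of -3.34 (-3.54 to -3.15), beside 13.8% of 13392 genes at least 2-fold apart in that gate. T cells with Cd8a or Cd8b1 and no Cd4 read 3.67 against 34.4 CPM, those with Cd4 alone 7.26 against 51.0 CPM, and the other T cells 14.0 against 76.4 CPM. The NK gate read 88.6 CPM (63.3 to 121) in 161 unnamed and 124 CPM (102 to 149) in 370 WT cells, -0.48 (-1.04 to 0.05), and did not differ beyond counting error. The myeloid gate read 8.14 CPM (6.08 to 10.7) in unnamed and 21.5 CPM (15.9 to 28.5) in WT cells, -1.40 (-1.996 to -0.81), and cells in more than 1 gate 9.24 and 26.05 CPM.

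The T gates of the second library differed in makeup as well. The NK receptor gene Klrb1c, which marks NK and NKT cells, read 49.8 CPM in unnamed and 506 CPM in WT cells, the NKT factor Zbtb16 5.39 and 62.0 CPM, and Trdc 20.4 and 136 CPM. Of the 1374 cells named NK, 782 fell in the T gate and 433 in the NK gate. Eomes, a factor of memory CD8 T and NK cells, read 366 CPM in unnamed and 36.4 CPM in WT cells, and Tbx21 69.2 and 127 CPM. The part of these markers in the Il12rb2 difference was not tested beyond leaving out cells with NK transcripts.

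Without any UMI of Klrb1c, Klre1 or Ncr1, CD8 T cells read 1.66 CPM (1.19 to 2.26) of Il12rb2 in unnamed cells of the second library and 7.92 CPM (4.43 to 13.1) in WT cells, -2.26 (-3.14 to -1.29). T gate cells with Cd4 alone read 2.65 CPM (1.48 to 4.37) and 15.9 CPM (10.4 to 23.3), -2.59 (-3.61 to -1.62). In the first library the same selections read 17.2 CPM in unnamed and 33.5 CPM in TG CD8 T cells, and 13.8 and 69.1 CPM in cells with Cd4 alone. The selection with Cd4 is not the class named CD4 T, which read lower in both TG and WT cells. Klrb1c was caught in 51.0% of WT cells of the T gate, and cells whose NK transcripts were missed can remain in these selections. Il12rb1 in such CD8 T cells of the second library was higher in unnamed cells, 23.9 against 13.2 CPM (0.86, 0.28 to 1.496), the opposite direction to its partner chain. With the T gate as a whole it was 26.8 against 32.4 CPM (-0.27, -0.43 to -0.11).

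**Figure D5:**
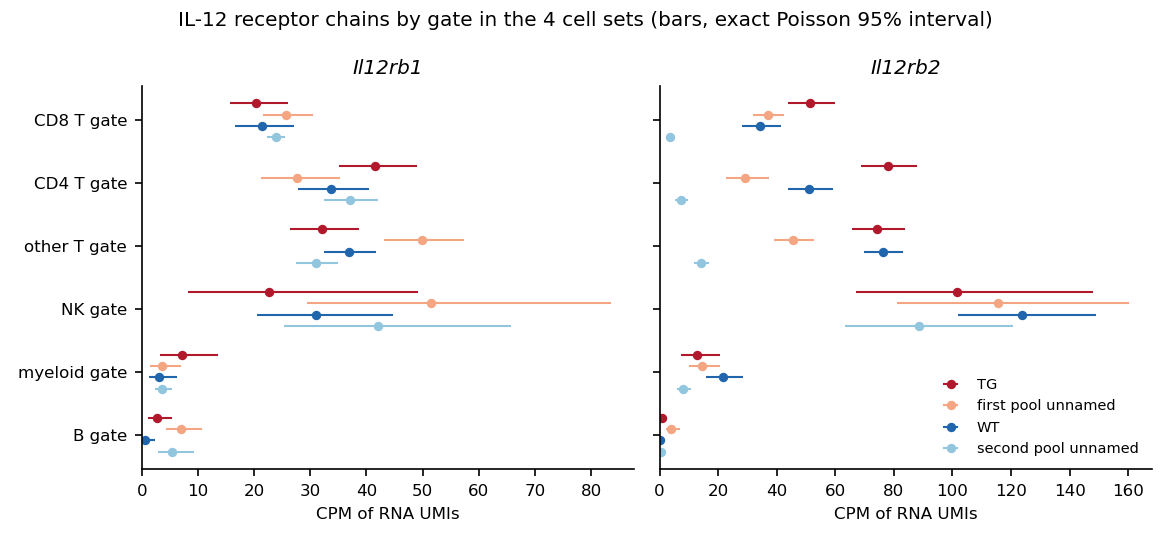
CPM of Il12rb1 and Il12rb2 (x axis) by transcript gate (y axis) in TG, WT and the unnamed cells of both libraries, with exact Poisson 95% intervals as bars. Il12rb2 of the unnamed cells of the second library lies at 14.0 CPM or less in the 3 T gates and at 88.6 CPM in the NK gate.

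Apart from Il12b, the cytokine subunits had the largest part of their UMIs in the B gate (Il12a) or the myeloid gate (Il23a, Ebi3, Il27) in unnamed cells of both libraries. The T gate held 31.6% of Il23a, 32.6% of Ebi3 and 24.7% of Il27 UMIs in unnamed cells of the second library, and 31.8%, 24.1% and 26.0% in those of the first. It held 12959 of 16829 and 2782 of 5379 of these cells, so its part of the UMIs was below its part of the cells. Among named cells, 66 of 370 macrophages and 48 of 462 monocytes fell in the T gate. In the B gate Il12a read 28.5 CPM (22.7 to 35.4) in TG and 46.0 CPM (38.6 to 54.3) in unnamed cells of the first library, and 26.7 CPM (21.3 to 33.1) in WT and 49.3 CPM (40.7 to 59.0) in unnamed cells of the second. In the myeloid gate Il27 read 18.2 and 36.8 CPM in the first library (log2 ratio 1.02, 0.34 to 1.75) and 6.60 and 17.2 CPM in the second (1.38, 0.60 to 2.27). Ebi3 in that gate read 79.1 and 115 CPM (0.54, 0.20 to 0.89), and 51.9 and 79.8 CPM (0.62, 0.33 to 0.92). Il23a read 13.5 and 7.55 CPM, and 18.9 and 13.3 CPM, with intervals of the log2 ratio that held 0 in both libraries.

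The subunits of IL-27 were often caught together. Over all cells 342 held Il27, and 131 of them (38.3%, 33.1 to 43.7) also held Ebi3, against 3.99% of the other cells. Within the myeloid gate the shares were 44.2% (80 of 181, 36.8 to 51.8) and 22.4% (20.9 to 24.1), at median depths of 4145 and 3176 UMIs. Within a single genotype the intervals overlapped, with 35.3% (6 of 17) and 21.7% in TG and 30.8% (4 of 13) and 14.7% in WT myeloid cells. The subunits of IL-12 were found in the same cell 3 times, all in unnamed cells of the second library, and Il23a and Il12b in none of the 4 sets. Il12rb1 and Il23r shared 7 WT cells and 18 unnamed cells of the first library.

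Genes with the profile most like a member over 21 profiles of cell type and genotype with at least 50 cells each, among 9778 genes, are given by Pearson's r of log2(CPM + 1) without a test, since profiles share libraries. For Il12a they were Hs3st1 (0.91), Fcrla (0.89) and Lynx1 (0.89), and for Ebi3 Ampd3 (0.92), Cfp (0.91) and Nfam1 (0.91). For Il12rb1 they were Wapl (0.93), Abca2 (0.92) and Rab19 (0.92), and for Il12rb2 they included Padi2 (0.90) and Epsti1 (0.88).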

How the data were processed

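Per the file headers, the authors processed BD Rhapsody whole-transcriptome reads of each pooled library with the BD Rhapsody WTA pipeline 1.9, and the labels name the build mm10. The deposited matrices hold UMI counts per cell and gene with surface protein counts, and a deposited cell table gives genotype, cluster and type for 11929 cells. Surface protein counts were left out. Some genes of the lists used are not reported here. RNA counts of 10026 and 24111 cells were summed per set, type, cluster and transcript gate and divided by summed RNA UMIs. Doublets were not removed in the main values, and cells with B and T transcripts were 3.75% to 11.6% of a set. The libraries shared 267 barcodes. Shares were also computed with each cell thinned to 1000 UMIs, as the mean over all draws, without an interval. A difference was called at 2-fold or more with at least 20 UMIs over both sets. No test was run. All 8 members were named, with the 3 most alike genes for members over 200 UMIs. The members and lists were chosen with earlier results of these data known. Promoter windows came from RefSeq for 5 of 8 members. Scripts ran on Python 3.11.15, numpy 2.4.6, scipy 1.17.1, pandas 2.3.3 and edgeR 4.0.16 (R 4.3.3, for TMM factors), and were tested on simulated data. Alternatives were TMM scaling, equal weight per cell, thinning, no minimum, leaving out doublets or the 3 cells with most UMIs, a fixed cell type mix and single gates.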

Additional observations from a re-analysis of the deposited data

How the results depend on the processing

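Of 291 values under alternatives for 44 results, 225 stayed within the counting interval (for counts of members, close to the reported count), 48 moved outside it and 18 reversed, where a reversal is a change of sign of a value whose interval excluded 0. No paired analysis was possible because each genotype has 1 library and no result comes from a test. In the first library the count of members at least 2-fold apart between unnamed and TG cells was 3 of 8 over all cells, 4 of 7 with enough molecules in the T gate, 2 of 5 in the myeloid gate, 1 of 2 in the NK gate and 1 of 3 in the B gate, beside 5.81%, 10.8%, 9.98% and 3.68% of all genes in those gates. In the second library it was 3 of 8 over all cells, 3 of 8 in the T gate, 2 of 7 in the myeloid gate, 0 of 2 in the NK gate and 0 of 2 in the B gate, beside 13.8%, 15.4%, 6.39% and 3.84% of all genes. Il12b between unnamed and WT cells of the second library (log2 ratio -0.58) depended on its few high cells. It was 0.83 with equal weight per cell, 0.83 after thinning, 1.69 without the 3 cells with most UMIs, 0.85 in the T gate, -0.99 in the myeloid gate, and, in alternatives chosen after seeing the data, 0.069 in the T gate without NK transcripts, -3.36 in cells with 30 or more mature dendritic marker UMIs and 2.81 over cells with 1 or 2 UMIs only. Single gates also reversed other members. Il23a (-0.83 in the first library's myeloid gate, 0.24 in the second's T gate) and Il12rb1 (-0.27 in the second's T gate) took the other sign from overall intervals that held 0. In the first library the reversed members were Il12b (-0.045) and Ebi3 (-0.20) in the B gate, Il27 (-0.23) in the NK gate, Il12rb1 (-1.004) in the myeloid gate, and Il12rb2 in the NK (0.19), B (2.54) and myeloid (0.21) gates. In the second they were Il12a in the T (0.035) and B (0.88) gates, and Ebi3 (-0.18) and Il12rb2 (0.39) in the B gate. Some of these reversals rest on too few UMIs for a call. Named and unnamed cells held 1 UMI each of Il12b (first library, B gate), Il27 (first, NK gate) and Il12rb2 (second, B gate). In the first library they held 9 and 8 UMIs of Il12rb1 in the myeloid gate. For Il12rb2 in its B gate the counts were 2 and 12. Counts this low show no direction. The cause of the other reversals was not tested. TMM moved the second library's ratios by 0.12. With 1 library per genotype, counting intervals leave out the spread between animals, and Il23r in TG γδ T cells rests on 5 UMIs.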
